A study of Mus musculus with 12 samples.

Results

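The genes described here are the insulin-like growth factor ligand Igf1, its receptor Igf1r, the second receptor Igf2r and the 7 binding proteins Igfbp1 to Igfbp7, measured in the kidney glomeruli of 12 mice. They were chosen by symbol and by being listed in the deposited tables, and the 10 genes are 10 of the 14096 listed. The tables list a gene only if its scaled reads came to 100 or more in 1 mouse or several. The values are log2 of reads scaled by 1 factor per library, and all differences below are on that log2 scale unless a fold is given. The glomeruli came from male mice that lacked endothelial nitric oxide synthase (eNOS−/−, C57BL/6J) in every group, so the deletion is shared by diabetic and nondiabetic mice. Con_DMSO mice were given citrate buffer in place of streptozotocin and then vehicle (5% DMSO), and Con_ATG mice were given citrate buffer and then arctigenin (ATG), a plant lignan. DM_DMSO and DM_ATG mice had received STZ (streptozotocin), a toxin that destroys the insulin-producing beta cells, in 5 daily doses of 50 mg/kg when 8 weeks old. ATG at 40 mg/kg or vehicle was gavaged daily for 8 weeks from week 10 after induction, so all mice were 26 weeks old at the end, and each group held 3 mice.

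Igf1 is a peptide made mostly in the liver under growth hormone, and also locally in many tissues. It acts through Igf1r, a receptor tyrosine kinase that signals to the PI3K and AKT kinases and is close kin to the insulin receptor. Most of the peptide in blood and tissue is held by binding proteins, which lengthen its life in plasma and set how much reaches the receptor. In the diabetic kidney this system has long been studied because growth of the kidney and its glomeruli is an early feature of the disease.

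The promoters of the 4 genes on which the results turn are shown here because 3 of them (Igfbp1, Igfbp3 and Igf1r) were lower in diabetic mice with either treatment, while Igfbp5 was not. Each line is RefSeq sequence of GRCm38.p6, which shares its coordinates with the mm10 build of the deposited tables, from 250 bases before the RefSeq transcription start to 20 bases short of it, written 5′ to 3′ on the strand of the gene. None of these windows touches an annotated GENCODE exon. Capitals mark any match to the insulin response core CAAAACA, to the forkhead core GTAAACA or to the TATA box core TATAAA, each searched on both strands, and no matches overlap.
Igfbp1, chr11:7197537-7197766, plus strand: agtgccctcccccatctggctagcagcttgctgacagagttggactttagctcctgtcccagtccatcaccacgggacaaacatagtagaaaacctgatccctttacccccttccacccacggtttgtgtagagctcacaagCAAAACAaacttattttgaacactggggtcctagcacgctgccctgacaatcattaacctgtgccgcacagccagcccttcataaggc
Igfbp3, chr11:7213944-7214173, minus strand: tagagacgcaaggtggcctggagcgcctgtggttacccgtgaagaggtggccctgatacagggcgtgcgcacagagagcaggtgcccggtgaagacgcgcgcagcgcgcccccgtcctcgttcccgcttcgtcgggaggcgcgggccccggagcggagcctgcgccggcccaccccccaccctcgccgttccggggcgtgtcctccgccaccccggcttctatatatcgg
Igf1r, chr7:67952007-67952236, plus strand: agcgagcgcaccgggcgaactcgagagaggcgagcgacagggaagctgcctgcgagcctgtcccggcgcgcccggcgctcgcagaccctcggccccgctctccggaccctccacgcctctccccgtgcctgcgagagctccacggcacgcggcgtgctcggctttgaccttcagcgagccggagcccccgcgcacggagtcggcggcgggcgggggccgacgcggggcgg
Igfbp5, chr1:72874886-72875115, minus strand: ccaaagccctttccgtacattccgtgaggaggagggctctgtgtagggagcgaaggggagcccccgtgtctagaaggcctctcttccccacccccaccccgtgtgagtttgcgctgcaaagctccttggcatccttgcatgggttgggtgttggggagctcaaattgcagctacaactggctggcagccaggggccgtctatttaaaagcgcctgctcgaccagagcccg
The CAAAACA letters were found once in the Igfbp1 window, 108 to 102 bases before the start, and in none of the windows of the other 9 genes. They are the core of the insulin response sequence for which this promoter is known, through which insulin represses the gene and forkhead (FOXO) factors raise it. Of 32531 distinct promoter windows of this length in the RefSeq table, 5.33% hold these letters on either strand, 2.91% hold GTAAACA and 11.7% hold TATAAA. Among the 14152 windows of genes listed in the tables the shares are 3.70%, 2.18% and 6.68%. The windows also differ in composition, with 52.2% G and C and 4 CpG dinucleotides for Igfbp1, 71.7% and 29 for Igfbp3, 77.4% and 38 for Igf1r, and 60.4% and 10 for Igfbp5. TATAAA was present in the windows of Igfbp4 and Igfbp6 only, and GTAAACA in that of no member. A match is a description of letters and not a measured site of binding.

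The binding protein genes include pairs of neighbours in the genome. Igfbp1 (chr11:7197787-7202546, plus strand) and Igfbp3 (chr11:7206086-7215498, minus strand) lie tail to tail with 3539 bases between them, and both were lower in diabetic mice. Igfbp2 (chr1:72824480-72852474, plus strand) and Igfbp5 (chr1:72858065-72874865, minus strand) lie tail to tail with 5590 bases between them, and both had their lowest group mean in Con_ATG. These spans are those of the RefSeq gene table. The span of Igfbp3 reaches past the deposited transcript, whose start on the minus strand is at base 7213923, and its promoter window above was taken before that start. The receptor gene Igf1r spans chr7:67952257-68233668 and Igf1 spans chr10:87858265-87937047. Being lower in diabetic mice was not particular to neighbours, since the values of Igf1 and Igf1r were lower as well. Igfbp6 (chr15) and Igfbp7 (chr5) likewise had their lowest group mean in Con_ATG.

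Reads on listed genes ranged from 23.6 to 29.8 M (mega) per mouse. All 10 podocyte markers (mean log2 value 13.7 to 15.5) and all 10 endothelial markers (12.7 to 14.3) were listed and above 0 in every mouse. The 15 tubule markers were as well, so this alone does not check the glomerular label. In Con_ATG replicates 1 and 3 the tubule mean (14.57 and 14.24) lay above the podocyte mean (14.18 and 13.71). The labels' protocol goes on to dissociation and to a sort of single cells by a yellow fluorescent protein (EYFP), while the study's methods for sequencing mention neither, and the labels do not say that these samples are a sorted fraction. The samples are treated here as whole glomeruli, and the part of a sort in the marker levels was not tested. Kidney tubule RNA was present in all libraries and differed between groups. The mean log2 value of 15 tubule markers (all 15 listed, none at 0) was 13.3 to 13.8 in Con_DMSO, 13.9 to 14.6 in Con_ATG, 11.4 to 12.7 in DM_DMSO and 12.1 to 12.7 in DM_ATG. On the linear scale the summed tubule markers ranged from 398578 to 459311, 541859 to 829420, 88322 to 257246 and 184917 to 203994 in the same order. Of the 15 markers, 11 were lower in diabetic mice given vehicle and 13 in diabetic mice given ATG. Leukocyte markers (8 of 10 listed) were higher in diabetes for 5 of the 8 with vehicle (median 0.77) and for 5 with ATG (median 0.67). Of 5 erythrocyte markers, 2 were higher with vehicle (median 1.65), while with ATG 1 was higher and 1 lower (median 1.04). The part of either in the diabetes differences below was not tested. Endothelial markers were lowest in Con_ATG (12.7 to 13.5) and podocyte markers reached their lowest mean there (13.7). Nos3, the targeted gene, had log2 values of 10.1 to 11.4 in these mice, and since every group carries the deletion this does not check a group label. Whether these reads lie in the deleted part of the gene was not tested.

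The members spanned a wide range of transcript level. Divided by transcript length in kilobases and by the library's reads in M (RPKM), the recovered reads in Con_DMSO came to 2045 ± 1.84 (SD, n = 3) for Igfbp7, a secreted protein of blood vessels with low affinity for the growth factors and the 7th most abundant of all listed transcripts. Igfbp5, a binding protein that attaches to extracellular matrix, followed with 301 ± 10.0, and Igfbp4, which holds the ligand until a protease cuts it, with 183 ± 24.6. Igfbp3, the main carrier in plasma, was at 46.9 ± 3.96. The receptors Igf2r (14.7 ± 0.333) and Igf1r (14.0 ± 1.31) did not differ beyond their spread. Igfbp2 stood at 7.96 ± 3.44, while Igfbp1 (3.42 ± 0.859) and Igfbp6 (3.15 ± 0.744) were within their spread of each other. The ligand Igf1 was lowest at 1.14 ± 0.130, above only 5.71% of listed genes. The 7 binding proteins took between 0.340% and 0.525% of a library's reads, and Igfbp5 and Igfbp7 made up most of that share in every mouse. The order of the means was the same in DM_DMSO and DM_ATG but for Igfbp6 above Igfbp1. In Con_ATG Igfbp1 (9.09 ± 1.05) stood above Igfbp2 (3.93 ± 2.34). Igfbp4 (202 ± 36.6) and Igfbp5 (182 ± 40.3) were there within their spread of each other. The deposited values of Igfbp2 and Igfbp7 combine 2 annotated transcripts each, so their level per length is uncertain. That of Igf1 is uncertain as well, since it has 5 annotated transcripts and was divided by 1 length (7073 bases).

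**Figure D1:**
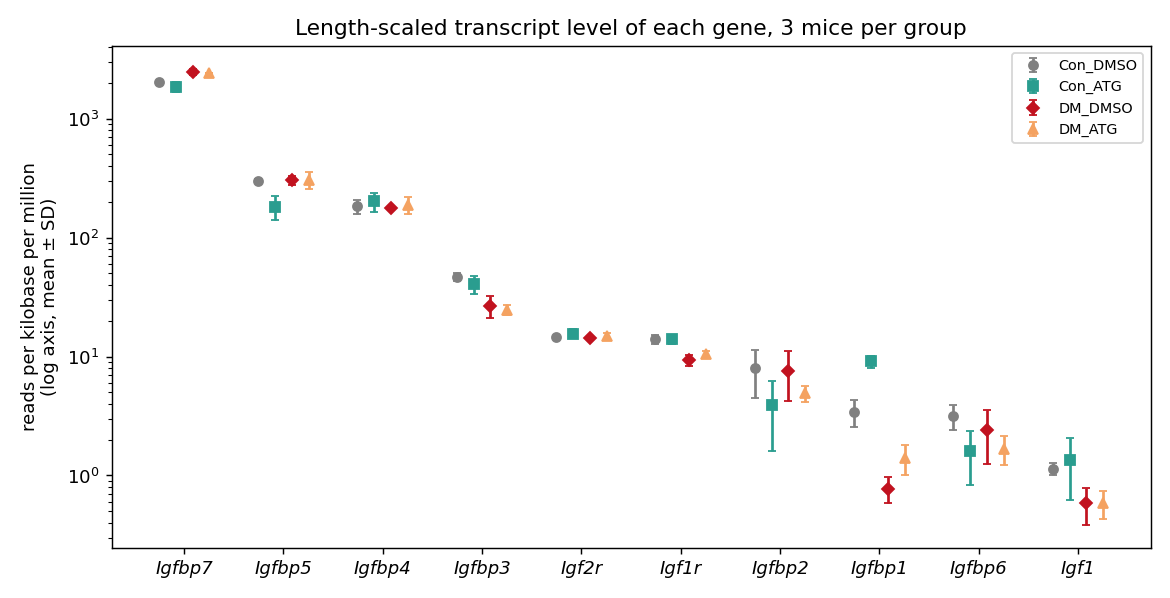
Length-scaled level (RPKM, reads divided by kilobases of transcript and by M reads of the library) on a log axis for the 10 genes, ordered by their level in Con_DMSO. Points are means and bars are SD over 3 mice, with 1 symbol and color per group, and the genes run from 2045 for Igfbp7 to 1.14 for Igf1.

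Diabetes was compared separately in vehicle-treated mice and in ATG-treated mice, which share no animal. Igfbp1 is left out of these counts. Its difference with vehicle was known when the genes were chosen, and it reached the 100 scaled reads needed for listing in all 6 nondiabetic mice (115 to 467) and in no diabetic mouse (29.0 to 74.5), so a gene with its diabetic level throughout would not have been listed. Of the other 9 genes, each listed through mice of both kinds, 2 passed in vehicle-treated mice (adjusted p under 0.05 in limma, Benjamini-Hochberg over all 14096 genes), both lower in diabetes. Over all genes 18.9% passed, 10.2% higher and 8.63% lower. In ATG-treated mice 5 of the 9 passed, 3 lower and 2 higher, against 46.7% of all genes, of which 25.9 percentage points were higher and 20.8 lower. The median difference of the same 9 members was −0.08 against 0.01 for all genes in vehicle-treated mice, and −0.08 against 0.05 in ATG-treated mice. Differences with an unadjusted p of 0.05 or more lay between −0.47 and 0.26 for 6 members with vehicle and between −0.12 and 0.47 for 4 members with ATG. The groups did not overlap for 4 of these 9 members in vehicle-treated mice (41.7% of all genes) and for 5 of them in ATG-treated mice (56.1% of all genes). With all mice in the fit the share of members that passed or stood apart was thus near that of all genes. For the share that passed with vehicle this depended on single mice. Over all genes 2659 passed, but 801 without Con_DMSO replicate 1, 1003 without DM_DMSO replicate 1 and 3357 without Con_ATG replicate 2. The members that passed, Igfbp1 included, stayed at 3 in these fits. The values of the single genes are given by role.

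The ligand Igf1 had log2 values of 7.91, 8.08 and 7.76 in Con_DMSO and of 6.86, 7.40 and 6.41 in DM_DMSO. In the ATG-treated mice it had 7.58, 7.70 and 8.87 in Con_ATG and 6.47, 7.00 and 7.26 in DM_ATG. All 6 diabetic mice lay below all 6 nondiabetic mice, although 1 Con_ATG mouse stood well above the others. The difference with vehicle was −1.02 (SE 0.35), which missed the threshold (limma adjusted p = 0.0622), and with ATG it was −1.14 (SE 0.35, limma adjusted p = 0.0208). Without the high Con_ATG mouse the second difference was −0.73 (limma adjusted p = 0.0735, or 0.0914 with both unnumbered nondiabetic mice, of which it is one, left out), and the first passed (limma adjusted p = 0.0195). The second also missed the threshold without DM_ATG replicate 1 (−0.92, limma adjusted p = 0.0785), and the first passed without DM_DMSO replicate 2 (−1.28, limma adjusted p = 0.0344). With tubule marker values averaged as a covariate they were −0.69 (SE 0.60, limma adjusted p = 0.522) with vehicle and −0.72 (SE 0.71, limma adjusted p = 0.625) with ATG. These values rest on 82 to 367 reads per mouse.

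The receptor Igf1r had log2 values of 12.39, 12.33 and 12.13 in Con_DMSO and of 11.56, 11.65 and 11.87 in DM_DMSO. Con_ATG mice had 12.43, 12.21 and 12.24 and DM_ATG mice 11.79, 11.86 and 11.96. Every diabetic mouse was again below every nondiabetic one. Igf1r fell by 0.59 (SE 0.10, a 1.51-fold change, limma adjusted p = 0.00566) with vehicle and fell by 0.42 (SE 0.10, a 1.34-fold change, limma adjusted p = 0.00629) with ATG. With the mean tubule marker value as a covariate the differences were −0.77 (SE 0.16, limma adjusted p = 0.0406) and −0.64 (SE 0.19, limma adjusted p = 0.119), so the first still passed. Igf2r, the mannose 6-phosphate receptor that carries Igf2 to lysosomes for breakdown, stayed between 11.86 and 12.14 in all 12 mice. Its diabetic and nondiabetic groups overlapped with either treatment, and it passed in no comparison.

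**Figure D2:**
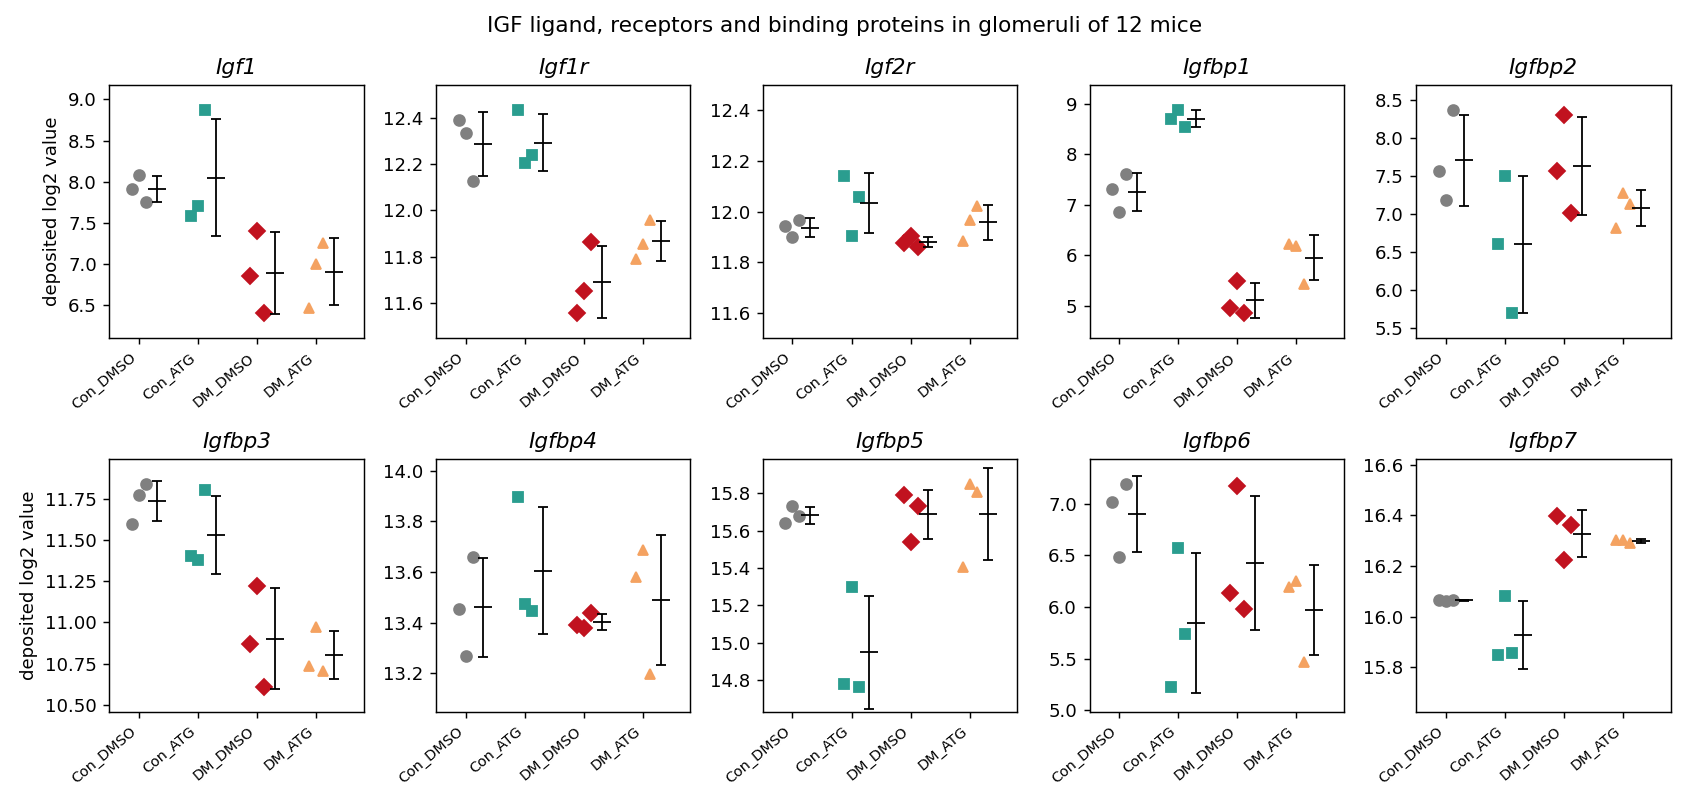
Deposited log2 values of each gene in the 4 groups, 1 symbol per mouse, with the group mean and SD over 3 mice in black beside them; each panel has its own axis range. All 6 diabetic mice lie below all 6 nondiabetic mice for Igf1, Igf1r, Igfbp1 and Igfbp3, while Igfbp5 is lowest in Con_ATG.

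Igfbp1 is a binding protein of liver and kidney whose transcription falls quickly when insulin rises and rises in fasting and in untreated insulin lack. Its recovered reads were 145, 107 and 177 in Con_DMSO and 27, 42 and 29 in DM_DMSO, or log2 values of 7.30, 6.85 and 7.60 against 4.96, 5.49 and 4.86. This difference, −2.15 (SE 0.26), a 4.43-fold lower level, is given as a description without a test. The ATG-treated mice are other animals, with 351, 418 and 291 reads in Con_ATG and 69, 70 and 42 in DM_ATG (log2 values 8.69, 8.87 and 8.53 against 6.22, 6.19 and 5.43). Here the difference was −2.75 (SE 0.26), a 6.72-fold lower level, which is likewise a description because of the listing. The groups did not overlap in either pair, and the direction held under each of the 20 other settings.

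The group order of Igfbp1, Con_ATG above Con_DMSO above DM_ATG above DM_DMSO, was also that of the tubule marker mean by group. Within groups the mouse with the lowest tubule marker mean in Con_DMSO (13.3), in DM_DMSO (11.4) and in DM_ATG (12.1) had the lowest Igfbp1, and in Con_ATG the mouse with the lowest tubule mean (13.9) had the highest Igfbp1. With the mean tubule marker value as a covariate the difference was −1.39 (SE 0.36) with vehicle and −1.80 (SE 0.43) with ATG. The part of tubule RNA in the level of Igfbp1 was otherwise not tested, and in whole glomeruli fewer cells of a type and less RNA per cell cannot be told apart.

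Igfbp3 had log2 values of 11.60, 11.77 and 11.84 in Con_DMSO against 10.87, 11.22 and 10.61 in DM_DMSO. In ATG-treated mice it had 11.40, 11.38 and 11.81 in Con_ATG against 10.73, 10.97 and 10.71 in DM_ATG. All diabetic mice were lower, by 0.84 (SE 0.16, 1.79-fold, limma adjusted p = 0.00793) with vehicle and by 0.73 (SE 0.16, 1.65-fold, limma adjusted p = 0.00407) with ATG. With the tubule covariate these became −0.39 (SE 0.22, limma adjusted p = 0.301) and −0.17 (SE 0.26, limma adjusted p = 0.767).

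**Figure D3:**
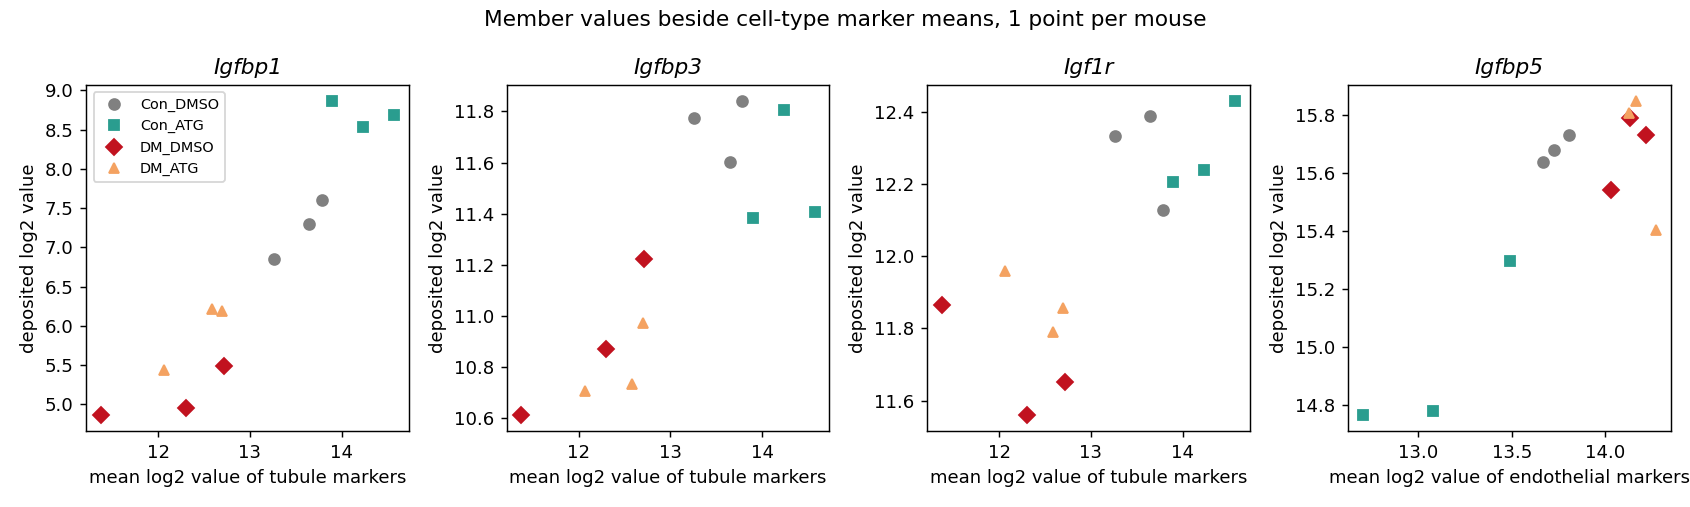
Deposited log2 values of Igfbp1, Igfbp3 and Igf1r against the mean log2 value of 15 tubule markers, and of Igfbp5 against that of 10 endothelial markers, with 1 point per mouse and 1 symbol per group. Con_ATG mice have the highest tubule means (13.9 to 14.6) and diabetic mice the lowest (11.4 to 12.7), and Con_ATG mice have the lowest endothelial means (12.7 to 13.5).

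Igfbp5 and Igfbp7, the most abundant members in diabetic mice, were higher in diabetes in the ATG-treated animals. Igfbp5 had log2 values of 14.78, 15.30 and 14.76 in Con_ATG and 15.41, 15.85 and 15.81 in DM_ATG, a difference of 0.74 (SE 0.17, limma adjusted p = 0.00538). In vehicle-treated mice the values were 15.64, 15.73 and 15.68 in Con_DMSO and 15.79, 15.54 and 15.73 in DM_DMSO, and the groups overlapped. The Igfbp5 values thus stood apart in Con_ATG, not in the diabetic groups. Igfbp7 had 15.85, 16.08 and 15.86 in Con_ATG and 16.30, 16.30 and 16.29 in DM_ATG, a difference of 0.37 (SE 0.12, limma adjusted p = 0.0305). It had 16.06, 16.06 and 16.07 in Con_DMSO against 16.40, 16.23 and 16.36 in DM_DMSO, groups that did not overlap although the test was not passed. All 10 endothelial markers were higher in DM_ATG than in Con_ATG (median difference 1.15), and 5 of 10 were higher in DM_DMSO than in Con_DMSO (median 0.51). In the comparison of DM_ATG with Con_ATG, 6 of 10 mesangial and contractile markers (median 0.66) and 3 of 10 podocyte markers (median 0.70) were higher as well. The part of these cell types' RNA in both genes' values was not tested. With the tubule covariate the differences in ATG-treated mice were 0.35 for Igfbp5 (SE 0.31, limma adjusted p = 0.590) and 0.20 for Igfbp7 (SE 0.23, limma adjusted p = 0.679). The Igfbp7 difference passed in 10 of the 20 other settings and was lost without Con_DMSO replicate 2, without Con_ATG replicate 1 or 3 and without any 1 of the DM_ATG mice.

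Igfbp2, Igfbp4 and Igfbp6 passed in neither diabetes comparison. Igfbp4 lay between 13.20 and 13.90 in all mice. Igfbp2, a binding protein with an integrin-binding motif, and Igfbp6, which prefers Igf2 over Igf1, varied widely between mice of a group, with SDs of 0.23 to 0.90 and of 0.37 to 0.68. Igfbp6 was read 32 to 134 times per mouse, and its differences carried an SE of 0.40, against 0.16 for Igfbp3.

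ATG was compared with vehicle in nondiabetic mice and in diabetic mice. In nondiabetic mice 2 members passed, Igfbp1 higher and Igfbp5 lower, against 5.22% of all genes (0.709% higher and 4.51% lower). These were also the 2 members whose groups did not overlap, as for 34.4% of all genes. Over all genes 736 passed here, but 60 without Con_DMSO replicate 2 and 3531 without Con_ATG replicate 2. With only the groups compared in the fit 0 passed. In diabetic mice no member passed and none of the 14096 genes did (0%), with 636 genes (4.51%) at an unadjusted p under 0.05 in limma, and limma-voom on the recovered reads also passed no gene. The 9 members other than Igfbp1 differed by −0.55 to 0.18 in diabetic mice. The groups of diabetic mice overlapped for all 10 members, while they did not for 10.2% of all genes. The median difference of the members was −0.06 against −0.04 for all genes in nondiabetic mice, and 0.01 against −0.01 in diabetic mice. These comparisons share their groups with those for diabetes, so they are not independent of them.

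Igfbp1 was 2.72-fold higher with ATG in nondiabetic mice, from 107 to 177 reads in Con_DMSO to 291 to 418 in Con_ATG, a difference of 1.44 (SE 0.26, limma adjusted p = 0.0151). It missed the threshold without Con_DMSO replicate 2 (1.24, limma adjusted p = 0.0759) or Con_ATG replicate 1 (1.45, limma adjusted p = 0.0545). In diabetic mice it went from 27 to 42 reads in DM_DMSO to 42 to 70 in DM_ATG, a difference of 0.84 (SE 0.26, 1.80-fold) that missed the threshold over all genes (limma adjusted p = 0.991, unadjusted p = 0.00802). The lowest DM_ATG mouse (5.43) lay just under the highest DM_DMSO mouse (5.49). With the tubule covariate the first difference was 1.09 (SE 0.25, limma adjusted p = 0.0960) and the second was 0.68 (SE 0.22). The tubule markers themselves had median differences of 0.69 in nondiabetic and 0.36 in diabetic mice, and none of the 15 passed in either.

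Igfbp5 fell by 0.74 (SE 0.17, 1.67-fold, limma adjusted p = 0.0370) with ATG in nondiabetic mice. Over the 20 other settings the limma adjusted p ranged from 0.00324 to 0.203 and the call held in 9, being lost without any 1 Con_DMSO mouse, without Con_ATG replicate 1 or 3, without DM_DMSO replicate 1 and without DM_ATG replicate 2 or 3. Endothelial markers were lower in the same comparison for 6 of 10 genes (median −0.64), as were 6 of 10 mesangial and contractile markers (median −0.85), and their part in the Igfbp5 value was not tested. With the tubule covariate Igfbp5 differed by −0.59 (SE 0.19, limma adjusted p = 0.187). Igfbp2 (−1.10, SE 0.46, limma adjusted p = 0.138) and Igfbp6 (−1.05, SE 0.40, limma adjusted p = 0.118) were lower on average in Con_ATG but missed the threshold. Without 1 Con_ATG mouse, replicate 2, both passed, at −1.55 and −1.41 (limma adjusted p = 0.0273 and 0.0271). The other 6 members differed by −0.21 to 0.14.

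**Figure D4:**
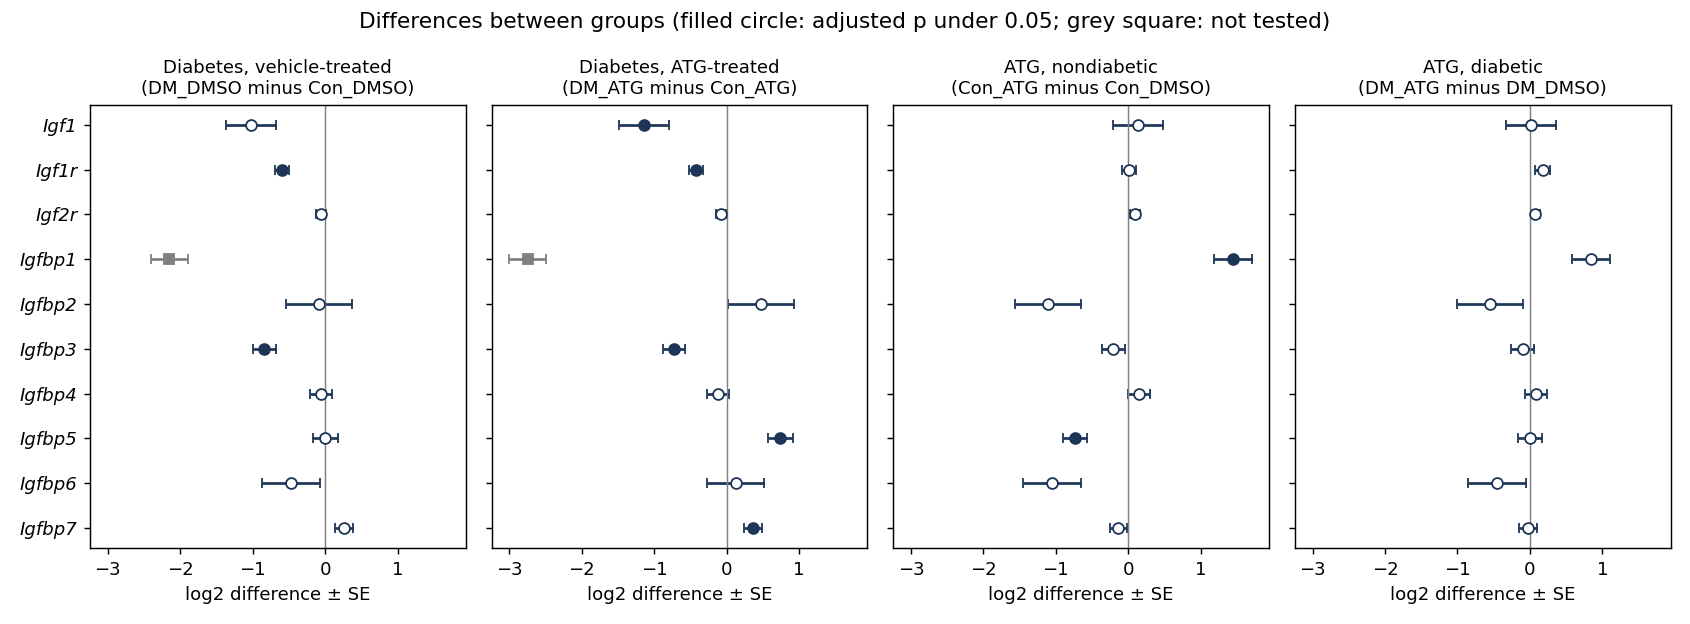
Log2 difference ± SE of each gene in the 4 comparisons from the limma fit of 12 mice, with filled circles for an adjusted p under 0.05 and grey squares for Igfbp1 in the diabetes panels, where it is not tested. Igfbp1 lies furthest left of 0 in both diabetes panels (−2.15 and −2.75) and furthest right with ATG in nondiabetic mice (1.44), while no circle is filled for ATG in diabetic mice.

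The difference between both ATG effects, tested as the interaction of diabetes and ATG, passed for no member and for 0.546% of all genes. It was 0.74 for Igfbp5 (SE 0.24, limma adjusted p = 0.242, unadjusted p = 0.0110), which had passed in nondiabetic mice. For Igfbp1 it was −0.60 (SE 0.37, limma adjusted p = 0.493), so the ATG effect on Igfbp1 was not shown to differ between nondiabetic and diabetic mice. The 9 members other than Igfbp5, Igfbp1 among them, had interaction values of −0.60 to 0.60. Without the Con_ATG replicate 2 the interaction of Igfbp5 passed (0.91, limma adjusted p = 0.0296). Over all genes the interaction passed for 77 with all mice, for 770 in that fit and for 6 without Con_DMSO replicate 2.

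Other genes of the pathway were taken from a fixed list of 48, of which 44 were listed. In vehicle-treated mice 5 were lower and 1 higher in diabetes, or 13.6% of the list against 18.9% of all genes. With all mice in the fit the list thus passed no more often than genes at large. The 3 listed ligand and insulin receptor genes were all among the lower ones. Igf2, the second ligand, fell by 1.45 (SE 0.24, limma adjusted p = 0.00544), Insrr, an orphan relative of the insulin receptor that senses alkaline pH, fell by 1.29 (SE 0.24, limma adjusted p = 0.00748), and the insulin receptor Insr fell by 0.56 (SE 0.09, limma adjusted p = 0.00445). The growth hormone receptor Ghr fell by 0.66 (SE 0.16, limma adjusted p = 0.0178) and the growth kinase Mtor fell by 0.20 (SE 0.06, limma adjusted p = 0.0481). Akt1, a kinase downstream of Igf1r, was higher by 0.31 (SE 0.06, limma adjusted p = 0.00753).

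In ATG-treated mice 11 of the 44 were lower and 6 higher in diabetes, or 38.6% of the list against 46.7% of all genes. The 11 include Igfals, the subunit that holds Igfbp3 in plasma, which was listed only through nondiabetic mice. Its difference (−1.11) is a description and no test, since no diabetic mouse reached 100. Of the ligand and insulin receptor genes Insr missed the threshold here (−0.23, SE 0.09, limma adjusted p = 0.0505), and Igf2 was lower by 0.65 (SE 0.24, limma adjusted p = 0.0490). Among the lower genes other than Igfals the lowest p were those of Ghr (−1.19), Insrr (−1.46), Stat5a (−0.41) and Grb14 (−1.27). Stat5a carries the growth hormone signal, and Grb14 is an adaptor that restrains the insulin receptor. Akt1 (0.50), the adaptor Shc1 (0.42), the mRNA-binding Igf2bp2 (0.60) and the kinase subunit Pik3r1 (0.25) had the lowest p among the higher genes. The median of the list was −0.08 against 0.01 for all genes in vehicle-treated mice, and 0.00 against 0.05 in ATG-treated mice. With ATG in nondiabetic mice Ghr was higher by 0.63 (SE 0.16, limma adjusted p = 0.0437), with log2 values of 11.40, 11.18 and 11.51 in Con_DMSO against 12.29, 11.77 and 11.94 in Con_ATG. Pik3r1 was lower by 0.35 (SE 0.07, limma adjusted p = 0.0184), and no gene of the list passed for ATG in diabetic mice or for the interaction. Tubule markers had median differences of −1.50 for diabetes with vehicle, −1.77 with ATG, and 0.69 for ATG in nondiabetic mice. The part of tubule RNA in the values of the pathway list was not tested.

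Over the 12 mice the listed genes whose log2 values ran closest to each member that passed are given by Pearson's r, followed by r after group means were removed. All points share their libraries and the group differences above, so r is a description. For Igfbp1 they included the transporter Slc22a22 (0.97, 0.83) and Gm5134 (0.97, 0.63). For Igfbp3 they were Fbln7 (0.96, 0.75), Wasf3 (0.95, 0.92) and Nme3 (0.95, 0.74). For Igf1r they were Snx14 (0.98, 0.96), Dmxl1 (0.96, 0.84) and Rev3l (0.95, 0.94). For Igf1 they were Ankrd24 (0.96, 0.89), Mycbpap (0.96, 0.91) and D430019H16Rik (0.96, 0.93). For Igfbp5 they were Irf2 (0.97, 0.86), Pcp4l1 (0.96, 0.84) and Ebf1 (0.96, 0.84), and for Igfbp7 they were Leprot (0.99, 0.95), Atp1b3 (0.99, 0.95) and Ccdc59 (0.99, 0.94). No gene appeared beside more than 1 member.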

How the data were processed

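For each mouse the authors deposited log2 values by gene beside symbols, identifiers and positions, which are in mm10 per the labels. These log2 values are reads multiplied by 1 factor per library, without division by length: on the linear scale 83.4% to 84.1% of values under 2000 were whole multiples of 1 step per library (within 0.02 reads). Of 2380 genes with 2 annotated transcripts, 2229 were not whole, and their values under 100 reads were whole once squared (100% within 0.1), as a geometric mean of 2 transcripts would be. Igfbp2 and Igfbp7 are of this kind. The submitters' processing notes name limma. The aligner and counting software are not given in the sources used here.

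All 12 mice entered 1 limma fit (version 3.58.1, R 4.3.3) of the 4 groups from the labels, with a mean-variance trend and no pseudocount. A gene passed when its p, adjusted by Benjamini-Hochberg over 14096 genes, was under 0.05. Recovered reads gave depth (23.6 to 29.8 M) and levels per length. Replicates are separate mice by their labels, and the spread between mice limits precision more than read sampling does (12.0 to 123 times its variance between replicates). The fit was tested on simulated data. The replicate numbers did not pair the mice.

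The members and lists were chosen with earlier results of these data known. All 10 members are described. Of the pathway list, up to 5 genes per comparison and direction with the lowest p among those that passed are named, and for each member that passed anywhere the 3 genes with the highest r are named. Some genes that these rules select are not reported here. Fold changes are given for members with an unadjusted p under 0.05, and others as ranges; the interaction of Igfbp1 is given besides because the gene passed for ATG. Alternatives were a floor of 10 reads for each mouse, median-ratio scaling, limma-voom on recovered reads, no variance trend, only the groups compared, the replicate block, each mouse left out, both unnumbered nondiabetic mice left out, the tubule marker mean as a covariate and an adjusted p under 0.10. Promoters are RefSeq sequence of GRCm38.p6. Figures were drawn with matplotlib.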

Additional observations from a re-analysis of the deposited data

How the results depend on the processing

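The counts of members with an adjusted p under 0.05 were 3 for diabetes with vehicle and 6 for diabetes with ATG (Igfbp1 included, which is no test in either), 0 for ATG given to diabetic mice, 2 for ATG given to nondiabetic mice and 0 for the interaction, and they stayed within 1.5 times under the read minimum, median-ratio scaling, limma-voom, no variance trend and an adjusted p under 0.10. With the mean tubule marker value as a covariate they were 1, 0, 0, 0 and 0, while the genes that passed over the whole list went from 2659, 6585, 0, 736 and 77 to 410, 105, 0, 55 and 38. With only the groups compared in the fit, and with both unnumbered nondiabetic mice left out, the count for ATG in nondiabetic mice was 0. Over the whole list this comparison went from 736 genes to 0 with only the groups compared. It went to 8 with both unnumbered mice left out. Leaving out 1 mouse gave 3 to 4 members for diabetes with vehicle, 4 to 6 with ATG, 0 for ATG in diabetic mice, 0 to 4 for ATG in nondiabetic mice and 0 to 1 for the interaction. In the same order, 801 to 3357, 4766 to 7451, 0, 60 to 3531 and 6 to 770 of all genes passed. The member count for ATG in nondiabetic mice was 0 without Con_DMSO replicate 2 or Con_ATG replicate 1 and 4 without Con_ATG replicate 2, which also gave the 1 for the interaction. It was 1 without Con_DMSO replicate 1 or 3, Con_ATG replicate 3, DM_DMSO replicate 1 or DM_ATG replicate 2 or 3. The cause of these moves was not tested, apart from the fewer mice in these fits.

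The number in the mouse label was used as a replicate block, although same-numbered mice are different animals and their deviations did not all run together (r of 0.31, 0.05 and 0.34 between diabetic mice). The unnumbered mice, all nondiabetic, formed 1 level, and the mice numbered 3 were all diabetic. Neither level thus holds both diabetic and nondiabetic mice. With this block 3, 4, 0, 2 and 0 members passed, the calls lost being those of Igf1 (−0.94, limma adjusted p = 0.0959) and Igfbp7 (0.35, limma adjusted p = 0.107) for diabetes with ATG, and over all genes 1375, 4422, 0, 946 and 8 passed. With median-ratio scaling 130 genes were higher and 408 lower for ATG in nondiabetic mice, against 100 and 636, and for diabetes with ATG 3161 were higher and 3248 lower, against 3649 and 2936. The library medians moved by at most 0.05.

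None of the 11 differences with an adjusted p under 0.05, of which 9 are tests and 2 are descriptions of Igfbp1, changed sign in any setting. Of 302 recomputed differences that had missed the threshold, 25 changed sign, and of 468 with 1 mouse left out, 32 did. The fewest reads in a mouse were 27 for Igfbp1 and 32 for Igfbp6.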
